A study of Mus musculus with 32 samples.

Results

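The 8 mice described here were the antimiR-34a-treated pups of the P14 time-point, out of 32 mice in the whole series. Of these, 4 pups were raised in 85% O2 and 4 in 21% O2. They were picked by their sample titles and their labels for treatment, exposure and age. The comparison of the 2 groups asks how the whole-lung transcriptome answered 85% O2 while miR-34a was being inhibited.

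The pups were wild-type C57Bl/6J mice of both sexes, randomized at birth to litters of equal size. An antimiR, here a locked nucleic acid oligonucleotide (called antagomiR in the labels) that pairs with miR-34a, was injected intraperitoneally into every pup of both groups, at P1 and again at P3 (10 mg/kg each), so the 21% O2 mice were not untreated mice. Oxygen at 85% was applied from P1 onwards, and the controls were kept in parallel at 21% O2. Before collection the lungs were flushed with PBS by way of the heart, and total RNA of the whole lung was labelled with Cy3 and hybridized to 1 one-colour array per mouse. The remaining mice of the series received a scrambled antimiR or were collected at P5, and they enter below only where the P14 antimiR-34a response is set beside theirs. Both P14 treatments were hybridized on the same slides, 1 slide per oxygen level, so that oxygen and slide cannot be told apart in any comparison of 85% with 21% O2 given here. The data were of bulk tissue, in which fewer cells of a type and less RNA per cell cannot be told apart.

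Prolonged exposure of newborn mice to high oxygen arrests alveolarization, the late stage of lung development in which secondary septa divide the distal airspaces, and is used to model bronchopulmonary dysplasia, the chronic lung disease of prematurely born infants. Oxygen injury is known to damage DNA and stabilize p53, which induces cell-cycle inhibitors, and to oxidize cysteines of KEAP1, which releases the transcription factor NRF2 to induce antioxidant enzymes. Septa form with the help of PDGFRα-expressing myofibroblasts that deposit elastin, alongside a growing capillary bed lined by general capillary cells, which renew the bed, and aerocytes, which face the airspace. The miR-34 family is itself transcribed under the control of p53. Inhibition by an antimiR sequesters the mature microRNA and does not remove its primary transcript.

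The mature microRNA that the antimiR pairs with is given here from RefSeq (build GRCm38.p6, chr4:150068473-150068494, + strand), because it is what the antimiR given to all 8 mice was directed against. Capitals mark the seed, bases 2 to 8, through which target transcripts are recognized.
mmu-miR-34a-5p: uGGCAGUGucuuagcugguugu

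Signals are given as log2 of the processed intensity minus the 75th percentile of the same array, so that 0 is the brightness of that percentile and differences of 1 are 2-fold. Fold changes are 85% O2 over 21% O2, with the standard error (SE) of the fit on 4 mice per group, and "called" stands for a Benjamini-Hochberg adjusted P under 0.05 in limma over the 38455 probes tested. The lung identity of the samples was clear on all 8 arrays: the type II pneumocyte gene Sftpc, which encodes surfactant protein C, lay between 9.16 and 9.61, and the club cell gene Scgb1a1 between 8.44 and 9.04. Male-linked Ddx3y was well above background only in replicate 4 of each group, at 2.01 in 85% O2 and 1.18 in 21% O2. In replicate 4 of the 21% O2 group Xist, the RNA of the inactive X chromosome, was also well above background at -1.76, against 1.22 to 1.46 in the other 21% O2 mice and -8.05 in replicate 4 of the 85% O2 group.

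Replicate 1 of the 21% O2 mice stood apart from the rest of its group. Its values correlated across 38320 probes at 0.982 to 0.984 with the other 21% O2 antimiR-34a mice but at 0.994 to 0.996 with replicates 1 to 3 of the 21% O2 scrambled mice. Replicate 4 of the scrambled mice correlated at 0.994 with each of replicates 2 to 4 of the antimiR-34a mice, and at 0.976 to 0.985 with its own group. Whether the labels of these 2 mice were exchanged was not tested, and both were kept as labelled. The 75th percentile of the log2 signal was 10.2 in replicate 1 and 9.56 to 9.64 in the other 21% O2 mice, while the 85% O2 mice ranged from 9.74 to 9.82. Within the 85% O2 group, replicate 2 was the distant mouse for several stress genes given below. Across all probes replicate 4 correlated least with its group mates, at 0.9855 to 0.9874, against 0.9855 to 0.9901 for replicate 2. The 2 mice said below to have stood apart are replicate 2 of the 85% O2 and replicate 1 of the 21% O2 mice. Of the genes commonly used for reference, Polr2a had a log2 fold change of -0.19 ± 0.11 and was not called, but was without replicate 1 of the 21% O2 mice (-0.27, adjusted P = 0.033), whereas the glycolytic Gapdh (0.95 ± 0.10) was called higher. Actb (0.27 ± 0.10) was called higher too, but not without replicate 1 or 2 of either group (adjusted P from 0.050 to 0.095).

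The 2 groups also differed in how many probes were lit. Between 39009 and 40210 probes were well above background on the 21% O2 arrays, and between 34603 and 35144 on the 85% O2 arrays (P = 0.0286 in an exact permutation test, two-sided, the lowest value possible with 4 mice per group). Olfactory and vomeronasal receptor genes, which belong to sensory neurons, were followed as a readout of signal from genes that lung is not known to use, chosen after their values had been seen. Of their 1478 probes, 21.2% to 25.4% were well above background in the 21% O2 mice and 9.68% to 11.2% in the 85% O2 mice. Of these probes 255 were above background on all 21% O2 arrays and 98 on all 85% O2 arrays. Over the former, which were picked by the 21% O2 arrays, replicate 1 averaged -4.56 and the other 21% O2 mice -3.74 to -3.64. The part of this signal in the lower calls described below was not tested.

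**Figure D1:**
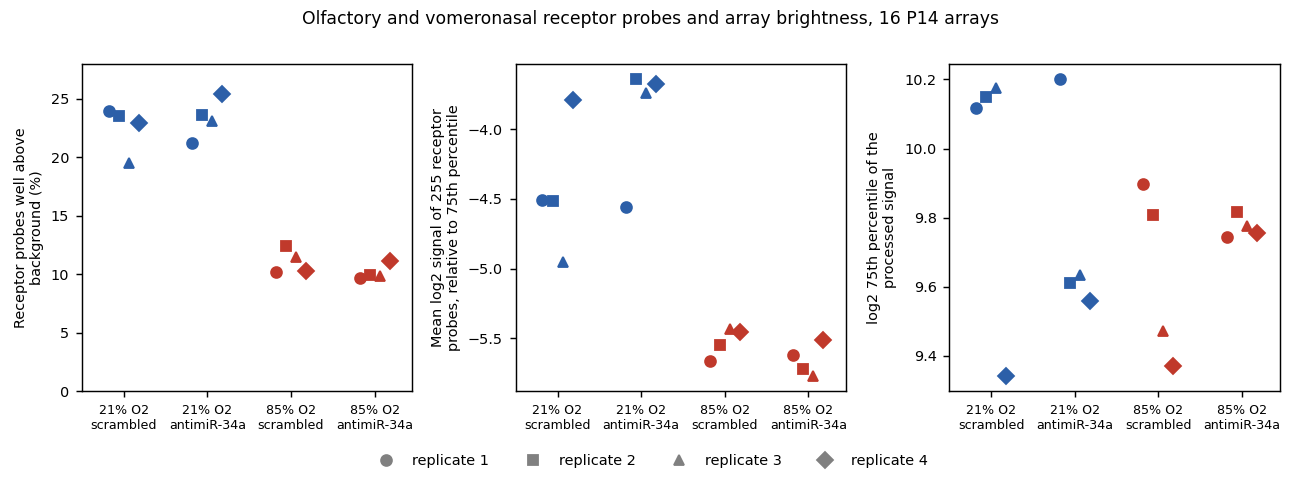
Share of olfactory and vomeronasal receptor probes well above background (left, %), the mean log2 signal, relative to the array's 75th percentile, of those above background on all 21% O2 antimiR-34a arrays (middle) and the 75th percentile itself (right, log2), 1 point per P14 mouse with the replicate number as its shape. The 21% O2 mice lie between 19.6% and 25.4% and the 85% O2 mice between 9.68% and 12.4%, and replicate 1 of the 21% O2 antimiR-34a group sits with replicates 1 to 3 of the 21% O2 scrambled mice in the middle and right panels.

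In the antimiR-34a mice, 85% O2 changed 25208 of 38455 probes (65.6%), with 10676 called higher (27.8%) and 14532 called lower (37.8%). Counting each gene once, on its brightest probe, 7880 of 26753 genes were higher (29.5%) and 9915 lower (37.1%), and the values of the 2 groups did not overlap for 16108 genes (60.2%). Changes of at least 8-fold were called higher on 91 probes and lower on 1585. The share of calls that were higher was 42.4%, but 53.3% after normexp background correction, 55.98% after quantile normalization and 50.7% when each probe had to be above background on all arrays of the fit. The median log2 fold change of all tested probes was -0.11, against 0.00 with normexp and 0.08 with quantile normalization, and that of the genes on their brightest probes was -0.08, which is the value to set beside each gene group below.

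The widest rise was that of Mmp10, which encodes stromelysin-2, a matrix metalloproteinase induced in injured epithelium and in macrophages (probe at chr9:7510011-7510070 in mm9). Its values in 85% O2 were 0.30, 0.64, -0.57 and 0.29, and in 21% O2 -8.13, -7.73, -7.83 and -7.87. All 85% O2 mice were above background and none of the 21% O2 mice was, so the rise is a bound of at least 75.3-fold (adjusted P = 9.1e-10). Bounds of at least 16.4-fold were obtained for Fosl1, a subunit of the AP-1 transcription factor, at least 11.9-fold for the C-type lectin Chodl, at least 11.8-fold for the p53-induced receptor Eda2r and at least 9.78-fold for Tnfsf18, a ligand of the TNF superfamily. Replicate 2 of the 85% O2 mice read lowest of its group for Chodl (-4.26) and highest for Tnfsf18 (-0.56). Without it the fitted log2 fold change moved from 5.46 to 6.05 in Chodl and from 4.95 to 4.21 in Tnfsf18. With the 21% O2 mice below background, these fitted values are no exact folds. Among genes above background in all 8 mice, the acute-phase protein gene Saa3 rose by 6.13 ± 0.46 on the log2 scale, with 4.51, 5.66, 4.71 and 2.81 in 85% O2 against -1.95 to -1.52 in 21% O2. Bean1 rose by 5.77 ± 0.35, the activin A subunit gene Inhba by 4.92 ± 0.19, the protease inhibitor gene Serpina3n by 4.47 ± 0.36 and the metalloproteinase inhibitor gene Timp1 by 3.90 ± 0.39. None of these genes overlapped between the groups.

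The promoters of 3 genes that rose are shown because each holds the AP-1 motif TGANTCA, the letters bound by FOSL1 dimers, within the 250 bases before the start site (RefSeq, GRCm38.p6, all + strand, capitals mark the motif, both strands searched). The motif lay 63 bases before the start of Mmp10 (chr9:7502092-7502341), 249 bases before that of Il6 (chr5:30012864-30013113), and 102 and 45 bases before that of Srxn1 (chr2:152105274-152105523).
Mmp10: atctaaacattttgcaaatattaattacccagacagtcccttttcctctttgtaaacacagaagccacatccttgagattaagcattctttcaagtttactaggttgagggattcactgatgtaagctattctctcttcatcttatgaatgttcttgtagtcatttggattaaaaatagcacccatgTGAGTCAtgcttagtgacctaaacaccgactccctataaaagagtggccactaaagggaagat
Il6: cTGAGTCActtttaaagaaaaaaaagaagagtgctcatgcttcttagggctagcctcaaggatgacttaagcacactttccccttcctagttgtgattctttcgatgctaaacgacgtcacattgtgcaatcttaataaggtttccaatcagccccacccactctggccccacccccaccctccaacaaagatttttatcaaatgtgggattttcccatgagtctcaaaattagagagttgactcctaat
Srxn1: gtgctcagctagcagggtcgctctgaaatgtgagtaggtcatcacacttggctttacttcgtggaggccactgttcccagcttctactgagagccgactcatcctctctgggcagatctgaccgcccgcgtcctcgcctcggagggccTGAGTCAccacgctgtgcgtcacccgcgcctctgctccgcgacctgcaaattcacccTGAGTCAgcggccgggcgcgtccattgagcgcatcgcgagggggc

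Of all 27025 promoters of the table, 6.87% held this motif, as did 3 of 11 promoters of the inflammatory cytokine list, 3 of 10 of the injury epithelium list, 3 of 15 of the NRF2 target list and 0 of 7 of the injury matrix list. These matches describe letters and show no binding.

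**Figure D2:**
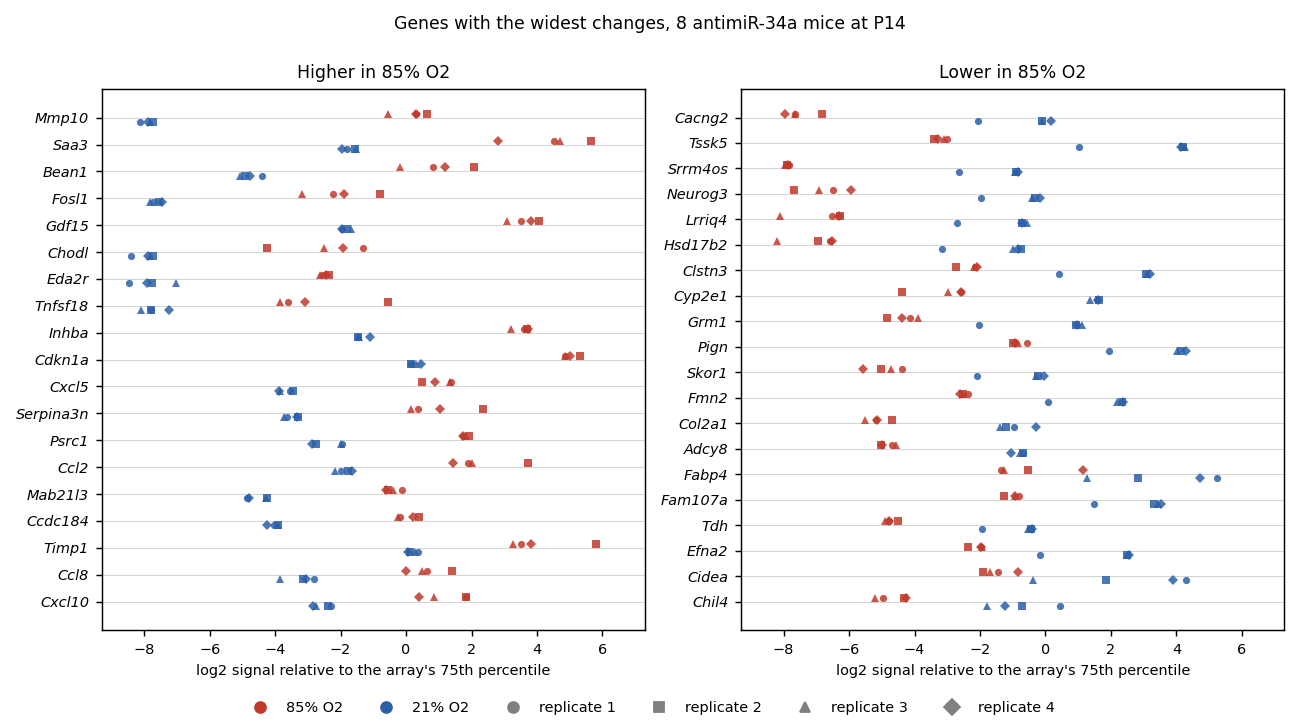
Log2 signal relative to the array's 75th percentile (x axis) of genes with the widest changes, 1 point per mouse, 85% O2 in red and 21% O2 in blue, with the replicate number as the shape. Mmp10 lies between -0.57 and 0.64 in 85% O2 and at or under -7.73 in 21% O2, and in many of the lower genes replicate 1 of the 21% O2 group lies below its group.

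Target genes of p53 were raised as a group: 15 of 18 measured genes were called higher and 1 lower, with a median log2 fold change of 1.71. Cdkn1a, which encodes the cell-cycle inhibitor p21 (chr17:29237377-29237436 in mm9), stood at 4.86, 5.32, 4.87 and 5.01 in 85% O2 and at 0.15, 0.14, 0.31 and 0.44 in 21% O2. Its rise of 4.75 ± 0.12 (adjusted P = 1.9e-11) corresponded to 27.0-fold, and the groups were far apart compared with the spread within them. Psrc1, a microtubule regulator, rose by 4.21 ± 0.18, the exonuclease gene Aen by 2.58 ± 0.10, the RNA-binding protein gene Zmat3 by 2.22 ± 0.07 and Mdm2, the ubiquitin ligase that degrades p53, by 1.77 ± 0.08. Sesn1, another p53 target, was the member called lower, by -0.47 ± 0.13. The remaining 2 genes of the list were not called.

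Of 17 measured genes of mitosis 4 were called lower (Cdk1, Bub1, Bub1b and Mki67) and none higher, with a median of -0.40. Both counts are below the shares of all genes, 37.1% lower and 29.5% higher. Cdk1, the mitotic kinase, fell by 1.21 on the log2 scale (SE 0.25). The proliferation marker Mki67 stood at 2.76, 1.51, 2.74 and 2.60 in 85% O2 and 3.50, 2.71, 3.12 and 2.71 in 21% O2, so that the groups overlapped and replicate 2 of the 85% O2 mice was the lowest. Its call (log2 fold change -0.60 ± 0.25, adjusted P = 0.043) was lost without that mouse (-0.31, adjusted P = 0.13) and without replicate 1 (-0.44, adjusted P = 0.13) or replicate 3 (-0.57, adjusted P = 0.089) of the 21% O2 mice. Without replicate 2 of the 85% O2 and replicate 1 of the 21% O2 mice the median of the mitosis list was 0.05, with 1 gene called higher and 3 lower. The S phase list had 2 of 15 genes called higher and 1 lower, with a median of -0.08 that became 0.20 without both mice (5 higher and 1 lower).

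Antioxidant enzymes induced by NRF2 were raised almost throughout, with 17 of 18 genes called higher, none lower and a median of 1.40. The glutathione S-transferase gene Gstm1, at 0.24 ± 0.12, was not called, but was without replicate 2 of the 85% O2 mice (0.36, adjusted P = 0.0070). Sulfiredoxin gene Srxn1, which restores oxidized peroxiredoxins, stood at 3.13, 3.65, 3.02 and 3.08 in 85% O2 against 0.60 to 0.85 in 21% O2 and rose by 2.52 ± 0.11. Ephx1, which hydrolyses epoxides, rose by 1.93 ± 0.06, and the quinone reductase gene Nqo1 by 2.11 ± 0.09. At the lower end, Gclm rose by 0.26 ± 0.11 (adjusted P = 0.048), a call that was lost when any 1 of 6 of the 8 mice was left out. Metallothionein genes, whose proteins bind zinc, were also higher: Mt1 by 1.97 ± 0.24 and Mt2 by 2.20 ± 0.52. They belong to a list of 11 glucocorticoid response and metallothionein genes. Of that list 4 were called higher, none lower and 7 neither way, with log2 fold changes down to -1.12 and a median of 0.46. Without replicate 2 of the 85% O2 mice 4 were higher and 2 lower, with a median of 0.14. Of all genes, 29.5% were higher. In Mt2, replicate 2 of the 85% O2 mice read 7.29 and the other 3 mice 4.18 to 4.39, against 2.69 to 2.90 in 21% O2, and the change was 1.44 without replicate 2.

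Genes of the ATF4 integrated stress response, through which cells answer amino acid shortage and mitochondrial stress, were called higher in 16 and lower in 2 of 19 cases. Their median was 1.16, or 0.76 when each gene was read as the median over its tested probes. The stress cytokine gene Gdf15 stood at 3.52, 4.05, 3.08 and 3.83 in 85% O2 and at -1.97 to -1.70 in 21% O2, a rise of 5.47 ± 0.20. Sesn2, an inhibitor of mTORC1, rose by 1.52 ± 0.09 and the amino acid transporter subunit gene Slc3a2 by 1.26 ± 0.09, whereas Pck2 fell by 0.51 on the log2 scale. Targets of hypoxia-inducible factor were mixed, with 6 of 16 called higher, 2 lower and a median of 0.05. The median was 0.25 when each gene was read as the median over its tested probes. Of all genes, 29.5% were higher and 37.1% lower. Ankrd37 rose by 2.05 ± 0.09 and the glucose transporter gene Slc2a1 by 1.20 ± 0.17, while the angiogenic factor gene Vegfa had a log2 fold change of 0.07 ± 0.08 (-0.12 after quantile normalization) and was not called in these values. In the circadian clock list 10 of 14 genes were called higher and 3 lower. Bhlhe40 and Nr1d1, repressors of the clock, rose by 2.05 ± 0.17 and 1.43 ± 0.15, while the repressor gene Cry1 and the activator gene Arntl fell by 0.86 and 0.43 on the log2 scale. Of the cholesterol synthesis genes 9 of 14 were called higher and 1 lower, with Mvd, a decarboxylase of the mevalonate pathway, at 0.87 ± 0.09.

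**Figure D3:**
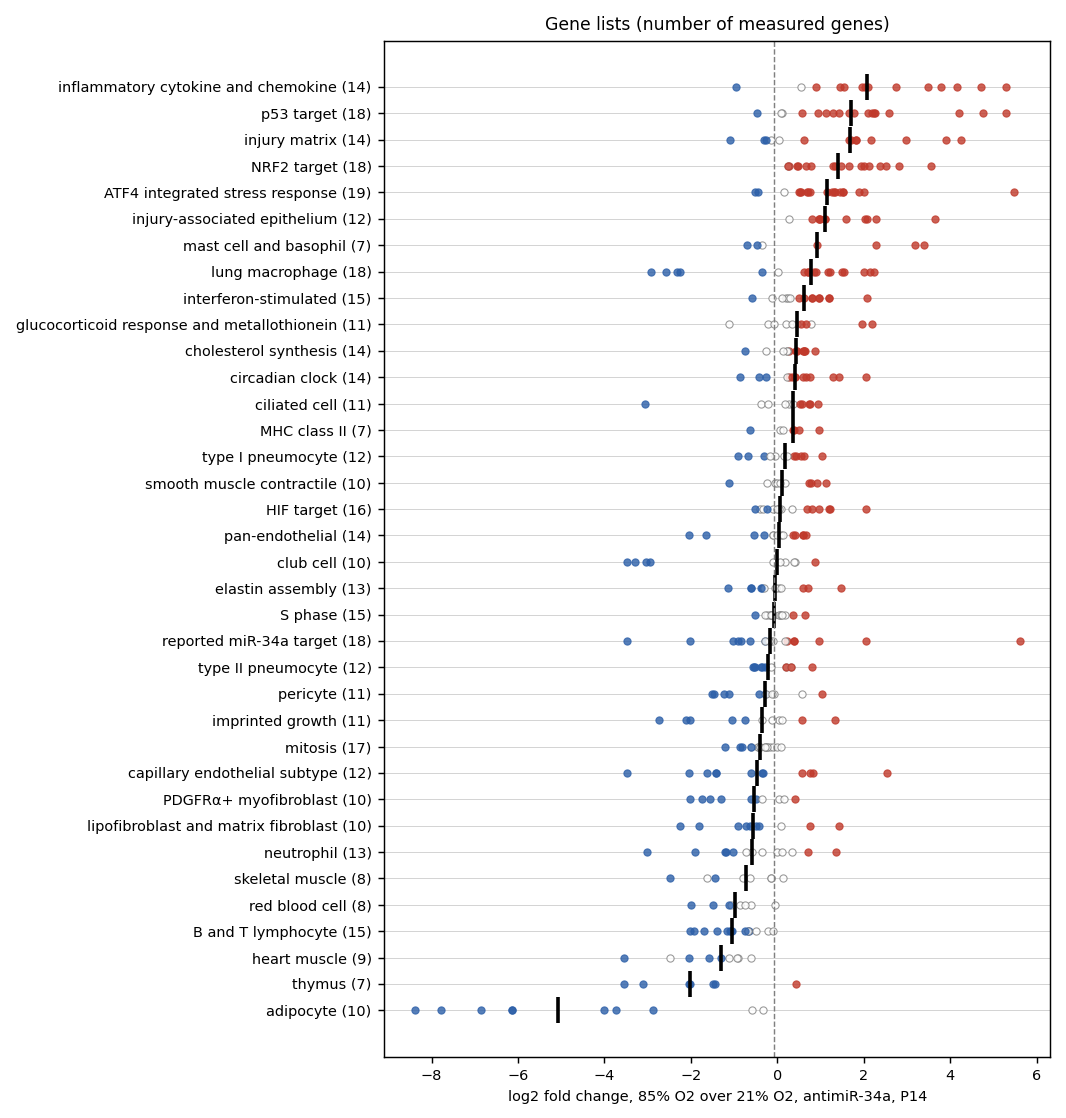
Log2 fold change in 85% O2 over 21% O2 of each measured gene of 36 gene lists in the antimiR-34a mice at P14, with the number of measured genes in brackets, red circles for genes called higher, blue for genes called lower, open circles for the rest, a black bar for the list's median and a dashed line for the median of all genes at -0.08. Inflammatory, p53, injury matrix and NRF2 lists have medians between 1.40 and 2.06 and the adipocyte list one of -5.07.

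Inflammatory cytokine and chemokine genes formed the list with the highest median, 2.06, with 12 of 14 genes called higher and 1 lower. Il6, the acute-phase cytokine, stood at -1.17, 1.03, -0.93 and -0.44 in 85% O2 and at -6.04 to -5.01 in 21% O2, where 2 of 4 mice were above background. In the fit it rose by 5.30 ± 0.41, which is no exact fold. Chemokines for neutrophils and for monocytes rose alongside, Cxcl5 by 4.71 ± 0.27, Ccl2 by 4.16 ± 0.35 and Ccl8 by 3.84 ± 0.30, as did the interferon-induced T-cell chemokine Cxcl10 by 3.79 ± 0.29. Il1b, at 0.54 ± 0.31, was not called. Cxcl12, made by stromal and endothelial cells, was called lower on its brightest probe by -0.96 ± 0.10, while another of its probes was called in the opposite direction.

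Markers of macrophages moved in both directions. Of 18 measured genes 12 were called higher and 5 lower, with a median of 0.78. The lipid-sensing receptor gene Trem2 rose by 2.24 ± 0.15, the scavenger receptor gene Marco by 2.14 ± 0.21 and Gpnmb, a marker of lipid-laden macrophages, by 2.01 ± 0.18. Lower members of the list included Siglecf, Ear1, Ear2 and Chil3, which alveolar macrophages or eosinophils are known to express, while Marco, another alveolar macrophage gene, rose as given. Siglecf, a sialic-acid-binding lectin, stood at -2.80 to -2.39 in 85% O2 and at -0.12 to 0.22 in 21% O2, the ribonuclease gene Ear1 at -0.71 to -0.36 and 2.30 to 2.48, and Ear2 at 1.94 to 2.45 and 4.37 to 4.55. These amounted to log2 fold changes of -2.57 ± 0.13, -2.93 ± 0.13 and -2.25 ± 0.13, with no overlap between the groups. The chitinase-like gene Chil3 fell with them, by 2.33 on the log2 scale (SE 0.43).

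Lymphocyte genes were lower or not called: 11 of 15 were called lower and none higher, with a median of -1.04. The B-cell gene Ms4a1, which encodes CD20, stood at 0.18, -0.33, 0.63 and 0.11 in 85% O2 and at 1.96 to 2.26 in 21% O2, and fell by 1.94 on the log2 scale (SE 0.20). Cd79b, a part of the B-cell receptor, fell by 1.07 on the log2 scale (SE 0.15). In Cd22, replicate 1 of the 21% O2 mice read 0.01 and its group mates 1.35 to 1.41, above the 85% O2 mice at -1.30 to -0.77. Mast cell protease genes rose: Mcpt4 by 3.19 ± 0.24, Cma1 by 3.40 ± 0.29 and Cpa3 by 2.28 ± 0.23, with no overlap between the groups. In the same list of 7 measured genes Hdc and Gata2, which basophils and other cells also express, were called lower, by -0.71 and -0.48. Neutrophil genes gave 2 called higher and 5 lower of 13 (median -0.59), the latter near the 37.1% of all genes and 3 after quantile normalization. They ranged from Mmp8 at 1.35 ± 0.38 to the resistin-like gene Retnlg at -3.01 ± 0.29.

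Interferon-stimulated genes were called higher in 9 and lower in 1 of 15 cases, with a median of 0.61. Ifit3, which encodes an antiviral protein, stood at 2.26 to 2.80 in 85% O2 and at 0.30 to 0.65 in 21% O2, and rose by 2.07 ± 0.13. Mx2 rose by 1.20 ± 0.11 and Usp18, which cleaves ISG15 from its targets, by 0.96 ± 0.11. Of 7 genes of MHC class II antigen presentation 4 were called higher (2 after quantile normalization) and 1 lower, beside 29.5% and 37.1% of all genes. H2-DMb1 rose by 0.95 ± 0.12 and Cd74 by 0.36 ± 0.11, and H2-Aa fell by 0.63 on the log2 scale.

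Among mesenchymal genes, Pdgfra was the myofibroblast marker of widest change (probe at chr5:75593888-75593947 in mm9). It encodes the receptor through which PDGF-A recruits septal myofibroblasts, and it is among the genes reported as targets of miR-34a. Its values were 0.52, 2.28, 0.65 and 0.85 in 85% O2 and 3.08, 3.11, 3.09 and 3.15 in 21% O2. All 4 hyperoxic mice were lower than every normoxic mouse, with replicate 2 the nearest, and the log2 fold change was -2.03 ± 0.28 (adjusted P = 2.8e-05), a 4.09-fold fall. The ligand gene Pdgfa rose, from 5.21 to 5.37 in 21% O2 to 5.70 to 6.08 in 85% O2, by 0.60 ± 0.09. Over the myofibroblast list 6 of 10 genes were called lower and 1 higher (median -0.54). Aspn, a small leucine-rich proteoglycan of the matrix, fell by 1.30 on the log2 scale and Mustn1 by 1.56, each with an SE of 0.11.

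Genes of lipofibroblasts and matrix fibroblasts were called lower in 7 and higher in 2 of 10 cases (median -0.56). The branching growth factor gene Fgf10 fell by 0.63 on the log2 scale (SE 0.08) and Inmt, a methyltransferase abundant in lung fibroblasts, by 1.82 (SE 0.23), but the lipid droplet gene Plin2 rose by 0.76 ± 0.12 and the ligand gene Wnt2 by 1.42 ± 0.16. Of 10 contractile genes of smooth muscle 4 were called higher, 1 lower and 5 neither way (median 0.12). Of all genes, 29.5% were higher and 37.1% lower. Acta2, which encodes smooth muscle actin, stood at 6.19, 6.76, 6.10 and 6.80 in 85% O2 and at 5.47 to 5.69 in 21% O2, a rise of 0.91 ± 0.15. Actg2 rose by 1.13 ± 0.20 and Tagln by 0.77 ± 0.14. The member called lower was Synpo2, at -1.13 ± 0.26. In pericytes, the mural cells of capillaries, 6 of 11 genes were called lower and 1 higher: both subunits of the nitric oxide receptor fell, Gucy1a3 by 1.48 on the log2 scale and Gucy1b3 by 1.22, while the proteoglycan gene Cspg4 rose by 1.04 ± 0.06.

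Of 13 elastin assembly genes 3 were called higher and 5 lower, near the shares of all genes, with a median of -0.05. Eln itself stood at 4.04, 5.49, 4.08 and 4.91 in 85% O2 and at 5.12 to 5.31 in 21% O2, so replicate 2 of the 85% O2 mice lay above the whole 21% O2 group. The call of Eln (-0.62 ± 0.24, adjusted P = 0.036) was lost when replicate 1 (-0.42, adjusted P = 0.12) or replicate 3 (-0.43, adjusted P = 0.12) of the 85% O2 mice, or replicate 1 (-0.59, adjusted P = 0.067), 2 (-0.62, adjusted P = 0.062) or 3 (-0.60, adjusted P = 0.070) of the 21% O2 mice, was left out. Mfap2, a microfibril component, fell by 1.15 on the log2 scale (SE 0.13). Lox, the enzyme that cross-links elastin and collagen, rose by 1.48 ± 0.26, with 1.86 in replicate 2 and 0.24 to 0.47 in the other 85% O2 mice against -0.79 to -0.67 in 21% O2. Efemp2, which presents lysyl oxidase to tropoelastin, rose by 0.70 ± 0.06.

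Matricellular and provisional matrix genes that mark injured tissue were called higher in 9 and lower in 3 of 14 cases (median 1.68). Timp1, given above, stood at 3.51, 5.80, 3.28 and 3.82 in 85% O2 and at 0.05 to 0.36 in 21% O2, with replicate 2 of the 85% O2 mice the highest. Cyr61, a target of YAP, rose by 2.17 ± 0.19 and Col12a1, a fibril-associated collagen, by 1.66 ± 0.16. The principal fibrillar collagens did not rise: Col3a1 fell by 0.27 on the log2 scale (SE 0.07) and Col1a1, at -0.15 ± 0.08, was not called. Imprinted genes of fetal growth were called lower in 5 and higher in 2 of 11 cases, beside 37.1% and 29.5% of all genes. Dlk1, a Notch-like ligand, and Mest fell by 2.73 (SE 0.16) and 2.12 (SE 0.14) on the log2 scale, and Igf2r, which clears IGF2, rose by 1.34 ± 0.09.

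In the alveolar epithelium, markers of type I pneumocytes, the thin cells of gas exchange, were called higher in 5 and lower in 3 of 12 cases. Their median was 0.18, and -0.003 after quantile normalization. Of all genes, 29.5% were higher and 37.1% lower. The water channel gene Aqp5 stood at 5.78, 6.40, 5.82 and 5.28 in 85% O2 and at 5.06 to 5.33 in 21% O2, and was called higher by 0.62 ± 0.17 with replicate 4 of the 85% O2 mice inside the 21% O2 range. Spock2 rose by 1.02 ± 0.19 and the caveolar gene Cav1 fell by 0.92 on the log2 scale (SE 0.10). The defining receptor gene Ager, at -0.06 ± 0.14, was not called, nor without replicate 4 of the 85% O2 mice (0.11). Emp2 was called lower on its brightest probe (-0.69 ± 0.14) and another probe was called higher. Type II pneumocyte genes gave 3 called higher and 6 lower of 12 (median -0.23), beside the same 29.5% and 37.1% of all genes. Sftpc had a log2 fold change of -0.16 ± 0.13 and was not called, its sign turning with the scaling (0.04 after quantile normalization). Sftpd, a surfactant collectin, rose by 0.79 ± 0.12, and Sftpa1 and Lamp3 fell by 0.56 and 0.36 on the log2 scale.

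Genes that mark injured and transitional epithelium were called higher in 11 of 12 cases, with none lower and a median of 1.10. Areg, the EGF-receptor ligand amphiregulin, rose by 3.64 ± 0.42 with 1.66 in replicate 2 of the 85% O2 mice and -0.90 to -0.42 in the other 3, against -3.85 to -3.56 in 21% O2. The urokinase receptor gene Plaur rose by 2.02 ± 0.16 and Lgals3, which encodes galectin-3, by 1.10 ± 0.16. In the conducting airways, club cell markers gave 4 called lower and 1 higher of 10, near the 37.1% of all genes called lower. Without replicate 2 of the 85% O2 and replicate 1 of the 21% O2 mice the count was 1 lower and 2 higher, and the median turned from -0.02 to 0.12 (0.17 without replicate 2 of the 85% O2 mice alone, with 3 lower and 2 higher). The mucin gene Muc5b stood between -1.03 and -0.86 in replicates 1 to 3 of the 85% O2 mice, at 2.68 in replicate 4 and at 2.14 to 3.56 in 21% O2, and fell by 3.04 on the log2 scale (SE 0.69), or by 3.95 without replicate 4. Replicate 4 was also the high mouse for the secreted antimicrobial gene Bpifb1, at 3.71 while the other 3 mice lay below 0, so that its log2 fold change of -3.48 ± 1.02 became -4.97 without it (-2.88 without replicate 1). The club cell secretoglobin Scgb1a1, at 0.17 ± 0.11, was not called. Ciliated cell genes gave 5 called higher and 1 lower of 11, beside 29.5% and 37.1% of all genes. The cilia regulator Foxj1 was at 0.75 ± 0.22 and the basal-body program gene Mcidas at -3.06 ± 0.40. In Mcidas replicate 1 of the 21% O2 mice read 5.70 and its group mates 7.06 to 7.25.

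Endothelial genes were called in both directions. Pan-endothelial markers gave 5 called higher and 4 lower of 14, near the shares of all genes (median 0.04, and -0.14 after quantile normalization), and the junctional marker Pecam1, at -0.09 ± 0.16, was not called. Tek, the angiopoietin receptor TIE2, was the member of widest change, with -0.59 to -0.18 in 85% O2 and 1.62 to 1.68 in 21% O2, a log2 fold change of -2.05 ± 0.12. The arterial transcription factor gene Sox17 fell by 1.65 on the log2 scale (SE 0.11), and the tight junction gene Cldn5 rose by 0.59 ± 0.06. Markers that separate the capillary types gave 4 called higher and 8 lower of 12 (median -0.48). Kit, a marker of general capillary cells, stood at -0.17, -0.38, 0.22 and -0.24 in 85% O2 and at 3.25, 3.41, 3.40 and 3.32 in 21% O2 (probe at chr5:76052394-76052453 in mm9). Its fall of 3.49 on the log2 scale (SE 0.12, adjusted P = 1.9e-10) was 11.2-fold, and the groups were separated by many times their spread. Gpihbp1, which anchors lipoprotein lipase on general capillary cells, fell by 1.63 (SE 0.14). Apln, the peptide made by aerocytes, the alveolar capillary cells of gas exchange, rose by 2.53 ± 0.12 from 2.51 to 2.70 in 21% O2 to 4.84 to 5.36 in 85% O2. Its receptor gene Aplnr, carried by general capillary cells, fell by 2.04 on the log2 scale (SE 0.24).

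Some of the genes with wide falls had tight 21% O2 values, among them Cyp2e1, a xenobiotic-metabolizing cytochrome P450, with -2.59, -4.37, -2.98 and -2.59 in 85% O2 against 1.36 to 1.65 in 21% O2 (log2 fold change -4.68 ± 0.33), and Adcy8, an adenylyl cyclase, at -4.02 ± 0.22. Others showed the pattern of the receptor probes, with replicate 1 of the 21% O2 mice below its group. The testis kinase gene Tssk5 read 1.01 in that mouse and 4.15 to 4.27 in its group mates, against -3.40 to -3.01 in 85% O2, and its fall was 6.60 on the log2 scale, or 7.40 without that mouse. Cacng2, a calcium channel subunit of neurons, read -2.06 in that mouse and -0.12 to 0.16 in the others and was not above background in any 85% O2 mouse, a fall of at least 52.7-fold. The endocrine transcription factor gene Neurog3 behaved likewise, with a bound of at least 46.3-fold. The part of the signal seen in the receptor probes in these falls was not tested.

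Markers of tissues that adhere to or border the lung were also examined. Of 10 adipocyte genes 8 were called lower and none higher. Their median of -5.07 is no exact fold, since 4 of the 10 genes were above background in all 85% O2 mice, and it was -3.59 with normexp, -4.43 without replicate 1 of the 21% O2 mice and -5.77 without replicate 4 of the 85% O2 mice. The brown fat uncoupling protein gene Ucp1 stood at 4.37, 1.59, -0.56 and 3.32 in 21% O2 and at -6.65 to -5.75 in 85% O2, where only 1 of 4 mice was above background, and in the fit fell by 8.39 on the log2 scale (SE 1.22), with log2 fold changes of -7.67 and -9.31 without replicate 1 or 3 of the 21% O2 mice. Fabp4, the fatty acid carrier of adipocytes and endothelium, read 5.25, 2.82, 1.28 and 4.71 in 21% O2 and -1.37 to 1.15 in 85% O2 (log2 fold change -4.02 ± 0.84, or -4.76 without replicate 3 of the 21% O2 mice). The 21% O2 mice thus differed widely among themselves, and replicate 3 had the least of both genes. Thymus genes gave 6 called lower and 1 higher of 7 (3 lower and none higher with normexp, 4 lower and 1 higher with quantile normalization). Heart muscle genes gave 4 lower and none higher of 9, the former near the 37.1% of all genes called lower. Without both mice that stood apart 1 heart muscle gene was lower, and without replicate 1 of the 21% O2 mice alone 2 were. The atrial muscle gene Sln ranged from 0.18 to 3.97 in 21% O2 and from -4.32 to 1.09 in 85% O2, with an overlap between the groups, and its log2 fold change of -3.56 ± 0.96 moved to -2.60 or -4.41 without replicate 1 or 4 of the 85% O2 mice and to -4.20 or -2.94 without replicate 3 or 4 of the 21% O2 mice. Of 8 skeletal muscle genes 2 were lower and none higher (median -0.72), both counts below the shares of all genes. Without replicate 4 of the 85% O2 mice 4 were lower (median -1.01). Of 8 red blood cell genes 3 were lower and none higher, near the 37.1% of all genes called lower. The red blood cell count was 0 without both mice that stood apart and 7 without replicate 4 of the 85% O2 mice. How far these other tissues contributed to genes they share with lung was not tested.

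In the scrambled antimiR mice of the same age and slides, 23383 of 38455 probes (60.8%) were called in the same contrast, 28.4% of all tested probes higher and 32.4% lower. Of the antimiR-34a calls 77.7% were also called there, and of the scrambled calls 83.8% were called with antimiR-34a. Among the 19656 probes called in both, 19593 had the same direction. Across all tested probes the log2 fold changes of the 2 treatments correlated at 0.911, with different mice but shared slides. Probes called at least 8-fold lower numbered 1585 with antimiR-34a and 639 with the scrambled antimiR, a difference that was not tested. Over the probes called at least 2-fold with antimiR-34a, and so picked by that treatment, the median ratio of the scrambled to the antimiR-34a log2 fold change was 0.741. For Cdkn1a the log2 fold changes were 4.75 with antimiR-34a and 4.40 with the scrambled antimiR, for Kit -3.49 and -3.18, and for Pdgfra -2.03 and -2.46. In the scrambled mice 14 of 18 p53 targets and 14 of 18 NRF2 targets were called higher, and 12 of 15 lymphocyte genes lower. Neutrophil genes had a median of 0.28 (4 higher and 4 lower of 13, near the shares of all probes there) against -0.59 with antimiR-34a. Imprinted genes had one of 0.03 against -0.36, and 1 ciliated cell gene was called higher against 5. The antimiR-34a medians depended on the scaling. For neutrophil genes they were -0.24 with normexp and -0.29 with quantile normalization, and for imprinted genes -0.10 and -0.12. None of these list genes was called in the interaction described next.

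**Figure D4:**
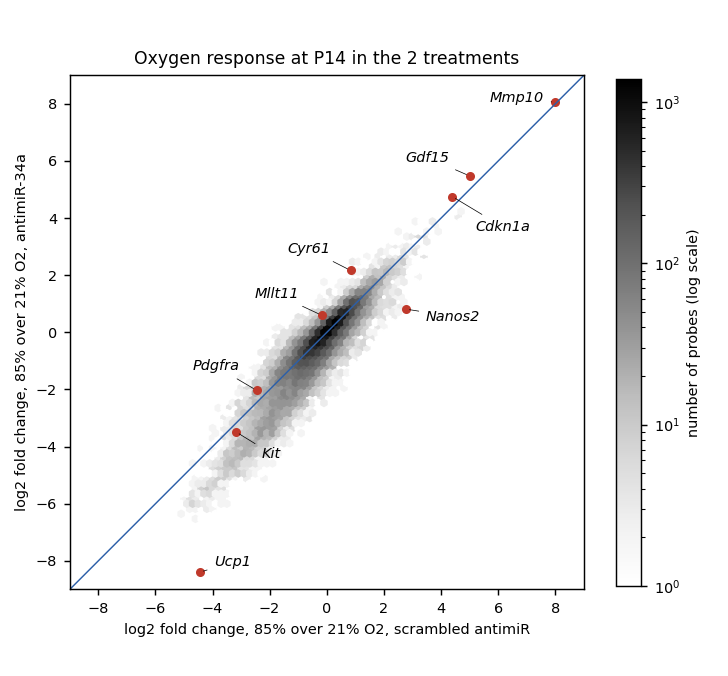
Log2 fold change in 85% O2 over 21% O2 at P14 of each tested probe in the scrambled antimiR mice (x axis) and in the antimiR-34a mice (y axis), shaded by the number of probes on a log scale, with the line of equality in blue and named genes in red. Cdkn1a lies at 4.40 and 4.75, Kit at -3.18 and -3.49, and Ucp1, with a wide spread between mice, at -4.44 and -8.39. The latter is no exact fold, since most 85% O2 antimiR-34a mice were not above background for Ucp1.

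The difference between the 2 treatments in their oxygen response was tested as an interaction. It was called for 34 of 38455 probes (0.0884%), 15 higher and 19 lower, with 5765 at an unadjusted P under 0.05. The adaptor gene Nck1 fell by 0.40 on the log2 scale in antimiR-34a mice and by 1.16 in scrambled mice, a difference of 0.76 (adjusted P = 0.042). Mllt11 rose by 0.60 with antimiR-34a and had a log2 fold change of -0.18 with the scrambled antimiR (difference 0.78, adjusted P = 0.042). The lymphocyte chemoattractant gene Il16 fell by 0.59 and 1.17 on the log2 scale, respectively (difference 0.57, adjusted P = 0.042). Zinc finger genes Zmym1 and Zfp82 differed by 0.75 and 0.85, the germ cell genes Nanos2 and Acr by -1.96 and -1.12.

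The count of called probes depended on which mice were in the test. Without replicate 1 of the 21% O2 antimiR-34a mice it was 111, without replicate 2 of the 85% O2 antimiR-34a mice 134, without both 214, and without replicate 4 of the 21% O2 scrambled mice 747. Left out one by one, replicates 1, 2 or 3 of the 21% O2 scrambled mice or replicate 3 of the 21% O2 antimiR-34a mice each took the count to 0 in limma, with between 4016 and 4422 probes at an unadjusted P under 0.05, and any other single mouse to between 1 and 54. When the resembling pair, replicate 1 of the antimiR-34a and replicate 4 of the scrambled 21% O2 mice, was left out together, an alternative chosen after seeing the data, 6142 probes were called, of which 5319 were lower. After quantile normalization the same test gave 3160 higher and 3336 lower, and with normexp 811 higher and 7382 lower, so the split between directions depended on the scaling. Of the 451 list genes 16 (3.55%) were called before this scaling, where 6142 of 38455 probes were, 22 (4.88%) after it and 29 (6.43%) with normexp. Of 278 tested olfactory and vomeronasal receptor probes 39.2% were called lower in this test, against 13.8% of all tested probes. Most of these receptor probes passed the filter through the 21% O2 mice. With antimiR-34a, 255 were above background on all 21% O2 arrays and 98 on all 85% O2 arrays. Lower calls were thus favoured by the filter, and the 2 shares do not compare like with like. Over the 5319 lower calls, and so picked by the test, antimiR-34a minus scrambled mice had a median log2 difference of 1.07 in 21% O2 and -0.27 in 85% O2. The part of the receptor signal in these calls was not tested.

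Genes reported as targets of miR-34a were read for their oxygen response and for its difference between treatments. Of 18 measured genes 6 were called higher and 7 lower in 85% O2 with antimiR-34a, with a median of -0.17, which is near the shares of all genes (29.5% and 37.1%), and none was called in the interaction. Besides Pdgfra and Kit given above, cyclin D1 gene Ccnd1 rose by 2.05 ± 0.09, Angpt1, the ligand of TIE2, fell by 0.92 on the log2 scale (SE 0.07), and the deacetylase gene Sirt1 fell by 0.28 (SE 0.07). The difference of the response between treatments was 0.43 in Pdgfra (adjusted P = 0.62), -0.31 in Kit (adjusted P = 0.41), 0.33 in Angpt1 (adjusted P = 0.17) and 0.12 in Sirt1 (adjusted P = 0.55). A P above the threshold does not show that the responses were alike.

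At P5, the antimiR-34a mice had 16776 of 35982 probes called in 85% against 21% O2 (46.6%), on other slides than at P14 and without shared mice. Of the P14 calls on the 35275 probes tested at both ages, 45.5% were also called at P5 in the same direction, and of the P5 calls 62.2% were called at P14 in the same direction. The difference of the oxygen response between P14 and P5 was called for 16840 of 39162 probes (43.0%), 8736 higher and 8104 lower at P14. The higher calls made up 51.9% of these, against 62.3% with normexp and 58.8% with quantile normalization. The P14 21% O2 mice, with the highest share of receptor probes above background among the antimiR-34a groups, enter this difference. The part of that signal in it was not tested.

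Of all probes tested at P5, 17.2% were called higher and 29.5% lower, and the difference between ages was called higher at P14 for 22.3% and lower for 20.7%. All 17 mitosis genes and all 15 S phase genes were called lower at P5, with medians of -0.94 and -0.66, against 4 and 1 called lower at P14. The difference was called for 5 of 17 mitosis and 10 of 15 S phase genes, each with the response higher at P14. The mitosis share is near that of all probes, and the P14 medians of these lists turned positive without the mice that stood apart, as given above. Mki67 read -1.19 at P5 and -0.60 at P14 on the log2 fold change scale, and the difference was not called (adjusted P = 0.085). Injury matrix genes had a median of -0.08 at P5 and 1.68 at P14, with the response higher at P14 in 8 of 14. Timp1 read 1.28 at P5 and 3.90 at P14 (difference 2.62, adjusted P = 3.2e-05).

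Smooth muscle genes gave 5 called lower and none higher at P5 against 4 higher and 1 lower at P14, and 6 of 10 differed. Acta2 read -0.23 at P5 and 0.91 at P14 (difference 1.14, adjusted P = 9.2e-06). Of the interferon-stimulated genes 9 of 15 had a higher response at P14, and at P5 3 were called higher and 6 lower. Lymphocyte genes had 4 called higher and 4 lower at P5, and 11 of 15 had a lower response at P14. Ms4a1 read 0.54 at P5 and -1.94 at P14 (difference -2.47, adjusted P = 5.4e-08). Kit was lower at both ages, by -1.36 at P5 and -3.49 at P14, a difference of -2.13 (adjusted P = 2.8e-09), and Pdgfra was lower by -1.31 at P5, a difference of -0.72 that was not called (adjusted P = 0.053).

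Stress programs were present at both ages. Of the p53 targets 15 of 18 were called higher at P5, with a median of 1.49, and Cdkn1a rose by 4.17 at P5 and 4.75 at P14. Of the NRF2 targets 16 of 18 were called higher at P5 with a median of 1.38, and Ephx1 rose by 2.01 at P5 and 1.93 at P14. Single genes with the clearest difference by age included Lrrc15, a fibroblast membrane protein, at -1.52 at P5 and 1.63 at P14, the glutamate receptor auxiliary gene Shisa6 at 0.50 and 3.60, and Cyp2e1 at 1.73 and -4.68. The fall of Ear1 was likewise wider at P14, with -0.32 at P5 and -2.93 at P14 (difference -2.61, adjusted P = 1.4e-08).

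**Figure D5:**
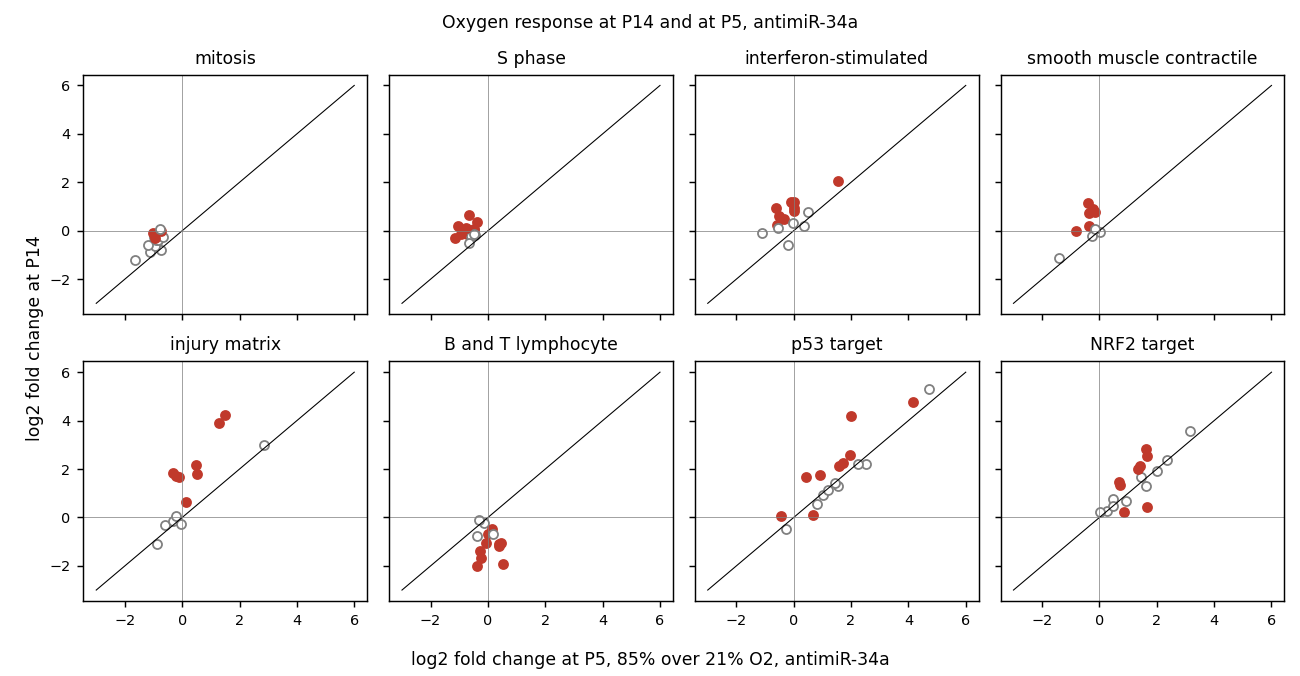
Log2 fold change in 85% O2 over 21% O2 at P5 (x axis) and at P14 (y axis) of the genes of 8 lists in the antimiR-34a mice, with the line of equality and filled circles where the difference between ages was called. S phase and mitosis genes all lie left of 0 and mostly above the line, lymphocyte genes lie mostly below it, and p53 and NRF2 targets lie mostly in the upper right.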

How the data were processed

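Total RNA of 32 whole lungs was hybridized to one-colour 59305-spot mouse arrays. Per the file headers, the authors scanned them and extracted Cy3 intensity values with Agilent Feature Extraction (version 10.7.3.1 in the submitters' processing notes), which subtracted background and averaged pixels. The authors also deposited a table of processed log2 values, used here as an alternative only. Depth does not apply to arrays, and precision is limited by the 4 mice per group. Nothing used here says that the samples of a group came from separate litters, so P-values measure the spread between these samples.

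Control spots and outlier spots (0.211%) were removed, no spot was saturated, and the spots of each of 55681 probes were averaged. Log2 of the processed intensity minus the 75th percentile of each array was fitted in limma 3.58.1 (R 4.3.3) with 1 mean per group, over the 4 groups of P14 or, for ages, over all 8 groups, on probes that passed the scanner's above-background flag in every mouse of 1 group or more. Of the tested probes 36 had a missing value. P-values were adjusted by Benjamini-Hochberg over all tested probes. A gene was read on its brightest probe. The fit was tested on simulated data with known changes. Probe coordinates are in mm9 per the file headers, and sequences are in GRCm38.p6. Of 192 genes picked by the rule below, 187 had a RefSeq symbol.

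The comparison to describe, and with it its members, and the 36 gene lists were chosen with earlier results of these data known, while the mice in each group follow from the labels. Genes were named by a rule: 12 fixed genes, the 15 widest changes in each direction above background on all 8 arrays without overlap, the 5 largest bounds in each direction, the 3 smallest P-values of each list with up to 2 called genes against its median, and the 5 smallest P-values in each direction of both interactions, of which a part is given. Ager, Aplnr, Chil3, Col1a1, Gclm, Gpnmb, Gstm1, Il1b, Marco, Mdm2, Pecam1, Scgb1a1, Trem2 and Vegfa were named after their values had been seen.

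Each of the 4 slides held 1 age and 1 oxygen level, so a slide block could not be fitted. Deviations of same-numbered mice from their group means correlated at -0.136, -0.0312, 0.0364 and 0.140, and the replicate numbers were not taken to pair mice. The methods' t-test, run on the same values, gave 24081 probes at its unadjusted threshold and 21367 after Benjamini-Hochberg adjustment. Alternatives covered background correction, normalization, filters, array weights, the replicate block, 1 probe per gene, the fold threshold and mice left out. Those with the 75th percentile as a covariate, with replicate 1 alone as the 21% O2 group, without the resembling 21% O2 pair and, for the lists, without replicate 4 of the 85% O2 mice were chosen after seeing the data.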

Additional observations from a re-analysis of the deposited data

Results flagged for a closer look

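In 24 of 286 groups of 4 mice tested, over 143 genes, 1 mouse lay far from the other 3 by Dixon's criterion, where chance gives about 1 in 20 groups. Of these, 9 were replicate 2 of the 85% O2 mice, 7 were replicate 1 of the 21% O2 mice and 3 were replicate 4 of the 85% O2 mice.

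Replicate 2 of the 85% O2 mice read highest of its group for the metallothionein genes Mt1 (7.05) and Mt2 (7.29), the sulfiredoxin gene Srxn1 (3.65), the clock repressor gene Bhlhe40 (1.97), Lox (1.86), Efemp2 (4.81), Plin2 (4.46) and Sftpd (7.73), and lowest for Mki67 (1.51). In replicate 4 the airway secretory genes Muc5b (2.68) and Bpifb1 (3.71) stood above the other 85% O2 mice, and the polymerase gene Polr2a (-0.25) below them. Replicate 3 differed in the mast cell genes Cma1 (-0.16) and Gata2 (1.48).

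Replicate 1 of the 21% O2 mice lay below its group for Sftpc (9.16), Apln (2.51), Cd22 (0.0115), Mcidas (5.70), Tssk5 (1.01), Cacng2 (-2.06) and Neurog3 (-1.98), and in the mean of the receptor probes (-4.56). The 75th percentile of its array was the highest, at 10.2. Replicate 4 differed in Inhba (-1.10) and Gucy1b3 (3.87) and replicate 2 in Fgf10 (-0.19).

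The oxygen response with antimiR-34a minus that with the scrambled antimiR was called for Zfp82 (0.85), Mllt11 (0.78), Nck1 (0.76), Zmym1 (0.75), Il16 (0.57), Acr (-1.12) and Nanos2 (-1.96). Between ages, the response at P14 minus that at P5 was called for Lrrc15 (3.15), Shisa6 (3.098) and Cyp2e1 (-6.41).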

How the results depend on the processing

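The count of probes changed by oxygen in the antimiR-34a mice was within 1.5 times of 25208 under each alternative run except a change of at least 2-fold (9217) and replicate 1 alone as the 21% O2 group (12009, fitted with the spread of the other groups), and lay between 23363 and 24708 with 1 mouse left out. Without both mice that stood apart it was 23708. The age difference was called for 6309 probes at 2-fold or more, and for 15345 to 17169 with 1 mouse left out.

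The treatment difference, 34 probes, depended on most choices: 0 probes with normexp (3387 at an unadjusted P under 0.05 in limma), 1 with quantile normalization, 1 with the authors' processed values, 4 with no filter, 62 with probes above background on every array, 5529 with array weights, 22 with 1 probe per gene, 20 at 2-fold or more, 214 without both mice that stood apart, 6142 without the resembling 21% O2 pair, 14 with the 75th percentile as a covariate, and 0 to 747 with 1 mouse left out. With the replicate block it was 5, while the oxygen response gave 25188 and the age difference 16708. The cause was not tested.

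Of 3278 comparisons of the named genes with an alternative, 3163 kept direction and side of the threshold, 86 lost and 20 gained a call, and 9 changed sign: Sftpc, Acr and Vegfa with quantile normalization (0.0357, 0.290 and -0.124) and with the authors' processed values (0.0357, 0.290 and -0.124), Sftpc (0.163) and Polr2a (0.0685) with replicate 1 alone as the 21% O2 group, and Ager without replicate 4 of the 85% O2 mice (0.110, within a range of -0.184 to 0.110 over the mice left out). The authors' processed values had nearly the same median on every array (6.004 to 6.006) and gave the same values as quantile normalization for these genes. They are thus no separate check. The call of Actb was lost without replicate 1 or 2 of either group. The slide block was not run because each slide held 1 oxygen level, and the number of arrays and the signal over background limit the dimmest probes.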
